A study of Homo sapiens with 6 samples.

Results

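Expression of 10 enzymes that make serine, move its carbon through the folate cycle and supply methyl groups was compared between si-N6AMT1 and si-CN libraries of human breast cancer cells. The enzymes were chosen by name for their role in these pathways, with earlier results of these data known. All 10 were matched by Ensembl identifier in the deposited table of 62438 genes. They all passed the expression filter that left 17320 genes for testing. RNA came from cells labelled MDA-MB-453, a breast cancer line, transfected for 48 h with 10 nM of an siRNA against N6AMT1 or of a scrambled siRNA, with 3 libraries per group. Both groups thus received siRNA and the same transfection reagent, and the knockdown was transient. Whether the triplicates were separate cultures is not said, so p-values measure the spread between these libraries. Beyond counting noise that spread was small, with an estimated coefficient of variation of 1.85% within groups. The siRNA sequences are not given in the sources used here.

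Serine is made from a glycolytic intermediate by PHGDH, PSAT1 and PSPH. Serine hydroxymethyltransferases, SHMT1 in the cytosol and SHMT2 in mitochondria, then split it into glycine and a carbon unit carried by folate, which MTHFD enzymes pass on to formate, purines and thymidylate. Methionine synthase uses the same carbon to regenerate methionine, from which MAT2A makes S-adenosylmethionine (SAM), the methyl donor of nearly all methyltransferases, N6AMT1 among them. After each transfer, AHCY removes S-adenosylhomocysteine, a product that inhibits methyltransferases. Breast tumors are known for differences in this pathway, including gain of PHGDH.

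Library totals ran from 19739247 to 21289740 counts, and no library stood apart, since chi-square divided by degrees of freedom was 1.37 to 1.77 for library pairs within a group and 6.89 to 7.80 for pairs across groups. N6AMT1 had 3.08, 3.53 and 2.93 CPM (counts scaled to library size by TMM) in si-N6AMT1 libraries and 6.93, 6.86 and 6.65 CPM in si-CN libraries. The targeted mRNA was lower without overlap, by a log2 fold change of -1.10 with a standard error of 0.119 and an FDR of 3.65e-07 in edgeR's quasi-likelihood test, which gives every FDR below unless another tool is named. N6AMT1 (ENSG00000156239) lies at chr21:30244513-30257693 on the minus strand, and gene positions are from GENCODE v44 on GRCh37. Markers went only partly with the labelled line, a luminal type. KRT19, a luminal keratin, had 8 to 14 counts and SPDEF 1 to 6, whereas the basal keratin KRT5 had 764 TPM (a relative level that accounts for transcript length) and KRT17 4176 TPM in si-CN. Of 10 luminal markers 8 were tested, and their list summed to 1560 to 1581 CPM in si-N6AMT1 and 1507 to 1547 CPM in si-CN libraries. All 3 basal markers were tested, with sums of 3737 to 3824 and 3689 to 3774 CPM. Mesenchymal markers summed to 1427 to 1455 and 1336 to 1356 CPM, and leukocyte markers to at most 0.254 CPM. Of the 8 tested luminal markers, KRT8 and KRT18 were higher (log2 fold change 0.12 and 0.08) and EPCAM was lower (-0.12). Of the 3 basal markers, KRT5 and KRT14 were higher (log2 fold change 0.11 and 0.18) and KRT17, the most abundant, was not called. Over all tested genes 9.78% were higher and 11.5% lower at FDR under 0.05. In the mesenchymal list FN1 was higher (log2 fold change 0.22, FDR = 1.75e-07) and VIM was not (log2 fold change -0.03, FDR = 0.381). The median log2 fold change of that list was -0.01. The part of these marker differences in the enzymes' values was not tested.

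Of the 10 enzymes, 4 were downregulated (PHGDH, SHMT1, SHMT2 and MTHFD1) and 1, MAT2A, was upregulated at FDR under 0.05. Among all 17320 genes tested, 21.3% were called in either direction, 11.5% lower and 9.78% higher. Changes were small: PHGDH, the least changed of the called enzymes, fell by 6.49%, SHMT2, the most changed on the log2 scale, fell by 9.05% and MAT2A rose by 9.85%, and the median log2 fold change of the 10 enzymes was -0.05, compared with 0.00385 over all genes tested. The median called gene fell by 0.18 or rose by 0.19 on the log2 scale, so that 70.3% to 90.9% of the 3687 called genes changed more than each called enzyme. Libraries of the 2 groups did not overlap for 6 enzymes, the 5 called ones and MTHFD1L. Over all genes tested the groups did not overlap in 34.9%, with si-N6AMT1 below in 18.0% and above in 16.8%. Only MAT2A and SHMT2 kept their call under each of 14 alternative settings. DESeq2, the tool the authors used for this comparison, called 3 enzymes, SHMT2 and MTHFD1 as lower and MAT2A as higher. Over all genes DESeq2 called 1932, with 1136 lower and 796 higher, where edgeR called 3687.

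**Figure D1:**
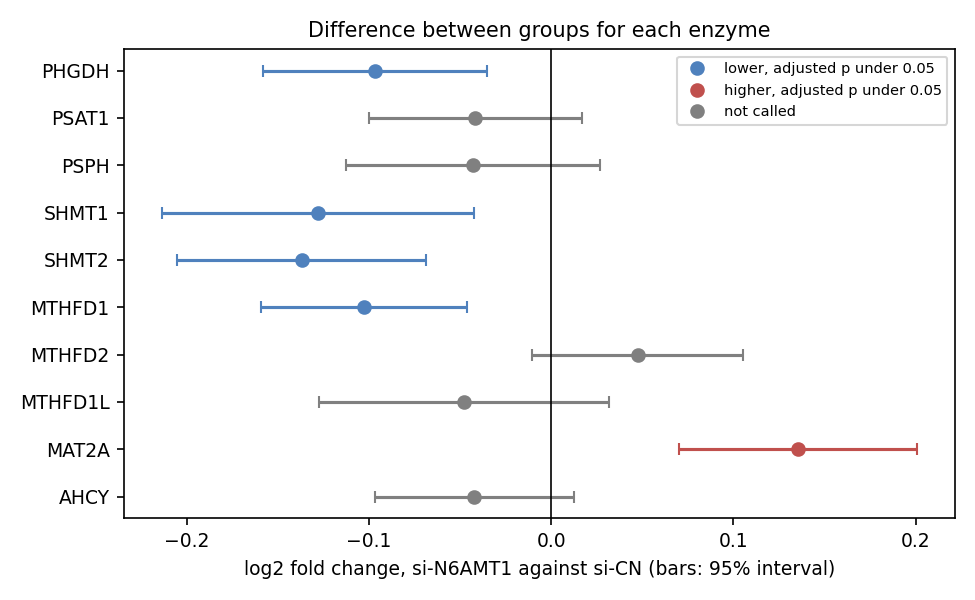
Log2 fold change of si-N6AMT1 against si-CN for each enzyme, with bars for its 95% interval from edgeR (3 libraries per group). SHMT2 at -0.14 and MAT2A at 0.14 lie farthest from 0 on either side, and intervals of PSAT1, PSPH, MTHFD2, MTHFD1L and AHCY include 0.

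Among enzymes of serine synthesis, PHGDH was lower and the other two were not called. PHGDH (ENSG00000092621, chr1:120191034-120286841, plus strand), which oxidizes 3-phosphoglycerate in the first and committed step, had 166.9, 159 and 165 CPM in si-N6AMT1 libraries and 175, 182 and 167.9 CPM in si-CN libraries. All si-N6AMT1 values lay below all si-CN values, although the closest libraries nearly met. PHGDH fell by 6.49% (log2 fold change -0.10, standard error 0.0296, FDR = 0.0214). This call was lost without si-N6AMT1 replicate 2 (FDR = 0.128), without si-CN replicate 2 (FDR = 0.162) and under DESeq2 (adjusted p = 0.0731), and over all settings FDR ran from 0.00392 to 0.162. PSAT1 (ENSG00000135069, chr9:80912041-80945009, plus strand), the aminotransferase of the next step, had 108, 113 and 107 CPM against 113, 112 and 113 CPM in si-CN. PSPH (ENSG00000146733, chr7:56078744-56119297, minus strand), the phosphatase that releases serine, had 74.6, 76.0 and 79.4 CPM against 80.2, 76.7 and 80.1 CPM. Groups overlapped for both. The 95% interval of the difference was -6.70% to 1.18% for PSAT1 (FDR = 0.342) and -7.51% to 1.87% for PSPH (FDR = 0.418).

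**Figure D2:**
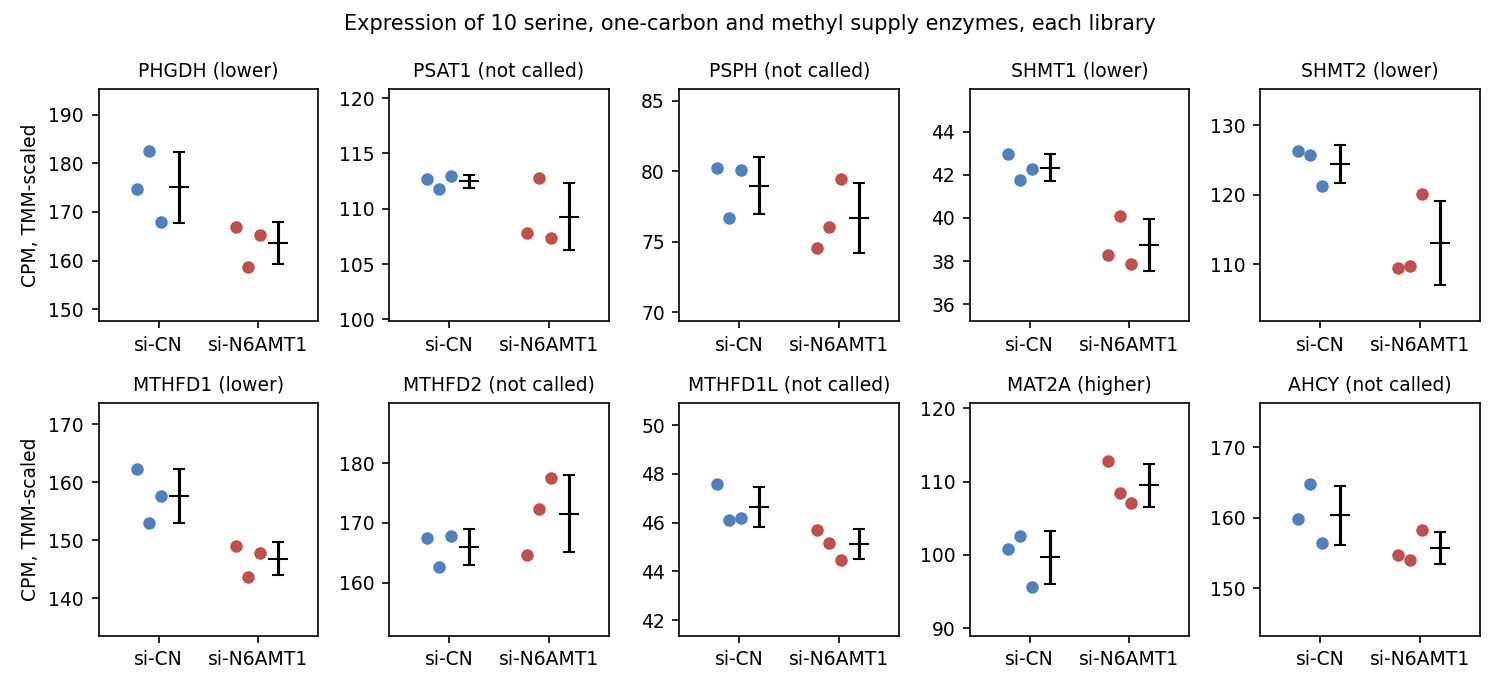
TMM-scaled CPM of each enzyme in every library, with points for single libraries and bars for mean and SD of 3 libraries. Vertical axes differ between panels and do not start at 0. All 3 si-N6AMT1 points lie below all si-CN points for PHGDH, SHMT1, SHMT2, MTHFD1 and MTHFD1L, and above them for MAT2A.

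Both serine hydroxymethyltransferases were lower in si-N6AMT1. SHMT2 (ENSG00000182199, chr12:57623356-57628718, plus strand), the mitochondrial enzyme and main source of carbon units in most proliferating cells, had 109, 109.8 and 120.1 CPM in si-N6AMT1 and 126, 126 and 121 CPM in si-CN libraries. Replicates 1 and 2 of si-N6AMT1 stood well below all si-CN libraries, while replicate 3 was close to the lowest of them. SHMT2 fell by 9.05% (log2 fold change -0.14, standard error 0.0328, FDR = 0.00381), and its log2 fold change ran from -0.18 to -0.11 with each library left out in turn. SHMT1 (ENSG00000176974, chr17:18231174-18266877, minus strand), the cytosolic enzyme, had 38.3, 40.1 and 37.8 CPM against 43.0, 41.7 and 42.3 CPM in si-CN, without overlap. It fell by 8.48% (log2 fold change -0.13, standard error 0.0413, FDR = 0.0299). SHMT1 was the least stable of the called enzymes. Its FDR was 0.0841 and 0.122 without si-N6AMT1 replicates 1 and 3, 0.0880 and 0.0767 without si-CN replicates 1 and 3, and 0.214 under DESeq2, within a range of 0.0252 to 0.214 over all settings.

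Of the folate-interconverting enzymes, the cytosolic one was lower and neither mitochondrial one was called. MTHFD1 (ENSG00000100714, chr14:64854749-64930175, plus strand), a cytosolic protein that carries 3 activities and links formate with purine and thymidylate synthesis, had 149, 144 and 148 CPM in si-N6AMT1 and 162, 153 and 158 CPM in si-CN libraries. Its groups did not overlap, and it fell by 6.86% (log2 fold change -0.10, standard error 0.0273, FDR = 0.00844). FDR rose to 0.0585 without si-N6AMT1 replicate 2 and to 0.0510 without si-CN replicate 1, the range over all settings being 0.00269 to 0.0585. MTHFD2 (ENSG00000065911, chr2:74413299-74444692, plus strand), a mitochondrial dehydrogenase and cyclohydrolase that is low in most adult tissues and high in tumors, had 165, 172 and 178 CPM against 168, 163 and 168 CPM. It was the only enzyme besides MAT2A with a positive log2 fold change, of 0.05 (95% interval -0.01 to 0.11, FDR = 0.260). MTHFD1L (ENSG00000120254, chr6:151186815-151423023, plus strand), which releases formate from mitochondria, had 45.7, 45.2 and 44.5 CPM against 47.6, 46.1 and 46.2 CPM. Although its groups did not overlap, MTHFD1L was not called (log2 fold change -0.05, standard error 0.0383, FDR = 0.434).

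MAT2A (ENSG00000168906, chr2:85766291-85772404, plus strand), the SAM synthetase of cells other than adult liver, was the only upregulated enzyme. It had 113, 108 and 107 CPM in si-N6AMT1 and 101, 103 and 95.7 CPM in si-CN libraries, and every si-N6AMT1 library lay above every si-CN library. The rise was 9.85% (95% interval 5.00% to 14.9%, log2 fold change 0.14, standard error 0.0314, FDR = 0.00291), with FDR from 0.000475 to 0.0331 over all settings. AHCY (ENSG00000101444, chr20:32868074-32899608, minus strand), which hydrolyses S-adenosylhomocysteine, had 155, 154 and 158 CPM against 159.8, 165 and 156 CPM, with overlapping groups and a 95% interval of -6.48% to 0.861% (FDR = 0.293). MAT2B, the regulatory subunit of MAT2A, was not called (log2 fold change -0.04, FDR = 0.593), and the liver enzyme MAT1A had at most 6 counts and was not tested.

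MAT2A mRNA is known to be controlled through hairpins in its 3′ untranslated region, which govern splicing of a retained intron and RNA stability. In these hairpins the methyltransferase METTL16 recognizes sequences such as ACAGAGA and methylates an adenosine. These sites are shown because MAT2A was the enzyme that rose. The reference transcript in GENCODE v44 on GRCh37 holds ACAGAGA 5 times within a 3′ untranslated region of 1509 bases, on the plus strand of chromosome 2. Only these exact letters were searched, so variant sites were not counted in any gene. In each line the site is in capitals and flanking bases are in lower case.

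MAT2A site at chr2:85770925-85770953: tggcgtaggctACAGAGAagccttcaagc
MAT2A site at chr2:85771712-85771740: tgtgatgtcatACAGAGAagtcacagggc
MAT2A site at chr2:85771897-85771925: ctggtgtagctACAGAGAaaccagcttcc
MAT2A site at chr2:85772012-85772040: atggcgtaagtACAGAGAagccatcacct
MAT2A site at chr2:85772235-85772263: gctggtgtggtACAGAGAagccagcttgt

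In all 5 windows a stretch of 5 bases before the site was complementary to one after it, such as atggc and gccat around the site at 85772012. All 5 sites extended to TACAGAGAA. This longer sequence was found on the transcript strand in 1.92% of 13150 untranslated regions of tested genes, ACAGAGA in 16.8%, and MAT2A was the only tested gene with 5 or more copies of the longer one. SHMT1 and AHCY held 1 copy each of the shorter one, and the other 7 enzymes none. Of the genes that act on these sites, METTL16 had 37.0, 38.2 and 35.4 CPM in si-N6AMT1 and 38.9, 39.1 and 40.0 CPM in si-CN libraries (log2 fold change -0.09, FDR = 0.133), and the reader YTHDC1 was not called (log2 fold change 0.02, FDR = 0.634). NUDT21, a subunit of the cleavage factor that acts with METTL16 on MAT2A splicing and was singled out here after its values were seen, had 134, 125 and 127 CPM against 145, 148 and 151 CPM. NUDT21 was lower without overlap (log2 fold change -0.21, standard error 0.0289, FDR = 1.10e-05). Counts were summed over transcripts, so spliced MAT2A and MAT2A with the intron could not be told apart, and neither hairpin methylation nor SAM was measured here.

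Per transcript length, the 10 enzymes spanned a 6.94-fold range in si-CN libraries. PHGDH was highest with 209 ± 9.03 TPM (SD, n = 3), which ranks it at 697 of 20019 protein-coding genes. AHCY followed with 166 ± 4.85 TPM, SHMT2 with 128 ± 2.20 TPM, PSAT1 with 113 ± 1.32 TPM and MTHFD1 with 111 ± 2.29 TPM. Libraries of PSAT1 and MTHFD1 overlapped, so that this pair has no order. PSPH (89.0 ± 1.99 TPM), MTHFD2 (83.9 ± 1.45 TPM) and MAT2A (78.7 ± 2.72 TPM) formed the next level, and SHMT1 (37.3 ± 0.276 TPM) and MTHFD1L (30.1 ± 0.173 TPM) the lowest. In si-N6AMT1 libraries MTHFD2, MAT2A and PSPH had 86.5, 86.3 and 86.2 TPM and were no longer separable, and SHMT2 (116 ± 6.00 TPM) overlapped PSAT1 (110.0 ± 2.44 TPM). These levels depend on the length assumed for each gene. With the median length of coding transcripts SHMT2 came first (219 TPM), then PSPH (146 TPM) and PHGDH (141 TPM), while comparisons between groups do not use length. Together the 10 enzymes took 0.113% ± 0.00136 of counts in si-N6AMT1 and 0.116% ± 0.00109 in si-CN libraries (SD, n = 3).

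**Figure D3:**
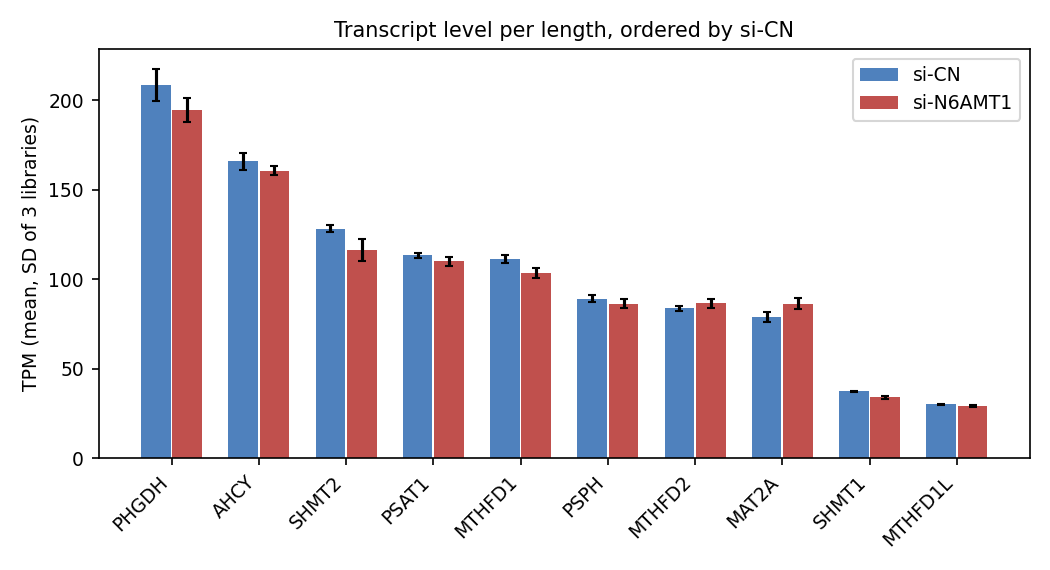
Mean TPM of each enzyme in si-CN and si-N6AMT1 libraries, with bars for SD of 3 libraries and enzymes ordered by their si-CN level. PHGDH is highest in both groups, and MAT2A rises from 78.7 to 86.3 TPM.

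Another 72 genes of the same pathways, in 6 lists, were examined beside these enzymes, of which 61 were tested. Of the 61, 9 were lower and 8 higher, against 11.5% and 9.78% of all tested genes, and their median log2 fold change was 0.00647. SLC19A1, GLDC, MAT1A, MAT2B, SLC3A2 and MMACHC were named after their values were seen. Of the 17 called genes 8, among them FOLR1, SLC46A1, SLC7A5, TYMS, SMS, SLC38A2 and MTAP, were called in all 13 settings run on these lists, whereas DESeq2 called 9 of the 17.

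The folate uptake genes FOLR1 and SLC46A1 rose and thymidylate synthase fell. Of 14 tested folate cycle genes, 2 rose and 2 fell, against 9.78% and 11.5% of all tested genes, with a median log2 fold change of -0.03. FOLR1, a folate receptor, had 403, 383 and 411 CPM in si-N6AMT1 and 332, 322 and 329 CPM in si-CN libraries (log2 fold change 0.28, standard error 0.0252, FDR = 1.76e-08). SLC46A1, the proton-coupled folate transporter, had 40.7, 41.2 and 37.9 CPM against 31.5, 29.3 and 29.3 CPM (log2 fold change 0.41, standard error 0.0476, FDR = 9.17e-07). Both rose without overlap of groups. SLC19A1, the reduced folate carrier, was not called (log2 fold change 0.17, FDR = 0.0651). TYMS, thymidylate synthase, had 61.6, 56.0 and 57.4 CPM against 70.6, 68.4 and 67.4 CPM (log2 fold change -0.24, standard error 0.0381, FDR = 6.70e-05). TYMS, which is known to be induced with DNA replication, fell by more than any of the 10 enzymes.

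In the serine and glycine list, 1 of 12 tested genes was lower and 2 were higher (median log2 fold change -0.01), against 11.5% and 9.78% of all tested genes. The neutral amino acid transporter SLC1A4 was lower (log2 fold change -0.26, FDR = 0.0152) and not called under DESeq2 (adjusted p = 0.112) or without si-N6AMT1 replicate 3, si-CN replicate 1 or si-CN replicate 2. SLC38A2, a transporter induced by amino acid lack and the most abundant of this list by CPM, rose from 1066 ± 12.2 to 1153 ± 10.5 CPM (SD, n = 3, log2 fold change 0.11, FDR = 0.000151). GCSH of the glycine cleavage system was higher (log2 fold change 0.16, FDR = 0.00356, DESeq2 adjusted p = 0.0593), whereas GLDC, the enzyme that starts glycine cleavage, had 4 to 8 counts per library and was not tested. Of 6 purine synthesis genes, which take up formyl groups, PPAT was higher (log2 fold change 0.08, FDR = 0.0482) and was called in 3 of 13 settings, in none of those that left out a library. PAICS, the most abundant of them, was not called (log2 fold change 0.03, FDR = 0.399).

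Methionine cycle genes had 4 lower and 0 higher of 16 tested (edgeR, median log2 fold change -0.05), against 11.5% and 9.78% of all tested genes. Groups did not overlap for 6 genes below si-CN and 1 above it, MMACHC (not called, FDR = 0.0984), where the shares over all tested genes were 18.0% and 16.8%. SLC7A5, the light chain of the main methionine and leucine importer, had 514, 489 and 496 CPM against 561, 573 and 576 CPM (log2 fold change -0.19, standard error 0.0224, FDR = 1.20e-06). Its heavy chain SLC3A2 was not called (log2 fold change -0.06, FDR = 0.0635). MTR, methionine synthase, and MTRR, which reactivates it, were both lower by 0.10 on the log2 scale (log2 fold change -0.10 for each, FDR = 0.0298 and 0.0116). AHCYL2, a relative of AHCY, was lower too (log2 fold change -0.18, FDR = 0.00698). MTR, MTRR and AHCYL2 were not called by DESeq2 (adjusted p = 0.153, 0.0821 and 0.103). The calls of MTR and MTRR also depended on single libraries and were made in 8 and 9 of 13 settings. MTR was lost without si-N6AMT1 replicate 3, si-CN replicate 1 or si-CN replicate 2, and MTRR without si-N6AMT1 replicate 2 or si-CN replicate 3. Of the 4 tested methyl sinks 0 were called by edgeR and 0 had an unadjusted p under 0.05, with a median log2 fold change of 0.03.

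Methionine salvage and polyamine synthesis, which consume and recycle SAM, had 2 lower and 3 higher of 9 tested genes (median log2 fold change 0.04). Over all tested genes 11.5% were lower and 9.78% higher. Both polyamine synthases rose. SMS had 549, 569 and 580.1 CPM against 525, 509 and 495 CPM (log2 fold change 0.15, FDR = 8.27e-05), and SRM had a log2 fold change of 0.16 (FDR = 0.00166). MTAP, which starts salvage of the methylthio group, was higher (log2 fold change 0.11, FDR = 0.00485). ENOPH1, a later salvage enzyme, and AMD1, which decarboxylates SAM, were lower (log2 fold change -0.14 and -0.08, FDR = 0.0149 and 0.0311), and neither was called by DESeq2 (adjusted p = 0.138 and 0.149). Both calls were lost without si-N6AMT1 replicate 2 or si-CN replicate 3, and that of AMD1 also without si-N6AMT1 replicate 1.

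**Figure D4:**
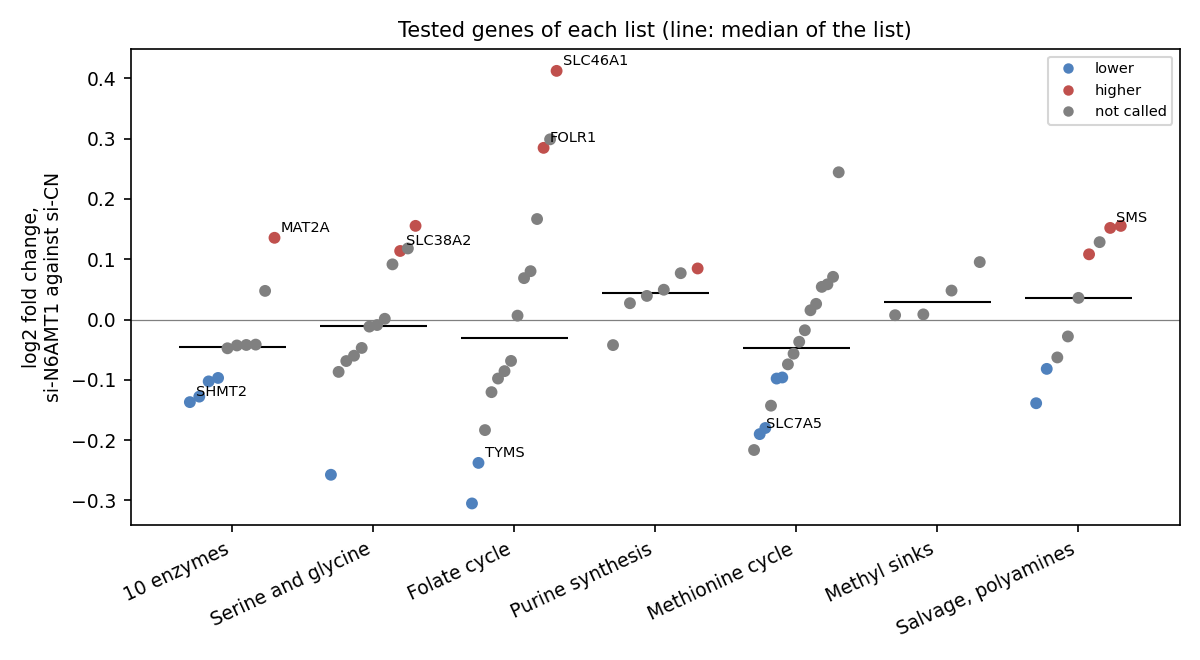
Log2 fold change of si-N6AMT1 against si-CN for tested genes of each list, one point per gene, colored by call at FDR under 0.05, with a line at the median of each list. SLC46A1 at 0.41 is the highest called gene, TYMS lies at -0.24, and the 10 enzymes lie between -0.14 and 0.14.

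PHGDH, PSAT1, SHMT2 and MTHFD2 are known targets of ATF4, the transcription factor of the integrated stress response, so 14 genes of that response were read beside them. ATF4 mRNA had 340.4 ± 4.28 CPM in si-N6AMT1 and 334 ± 9.25 CPM in si-CN libraries (SD, n = 3) and was not called (log2 fold change 0.03, FDR = 0.449). ATF4 protein was not measured here. Of the 14 genes, 5 were higher and 1 was lower (median log2 fold change 0.03), against 9.78% and 11.5% of all tested genes, and these were named after their values were seen. SESN2 (log2 fold change 0.42, FDR = 2.97e-07), DDIT3 (0.21, FDR = 6.70e-05), SLC7A11 (0.19, FDR = 4.44e-05), CEBPB (0.11, FDR = 0.00122) and ASNS (0.11, FDR = 0.0272) were higher, and ATF5 was lower (-0.38, FDR = 0.00338). ASNS was not called by DESeq2 (adjusted p = 0.191), without any 1 of the si-N6AMT1 libraries or without si-CN replicate 3. DDIT4, the most abundant by CPM, was not called (log2 fold change 0.01, FDR = 0.747). Of the 4 enzymes named as targets, PHGDH and SHMT2 were lower and PSAT1 and MTHFD2 were not called, and no test of the difference between the enzymes and this list was run.

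RefSeq promoters (GRCh38.p14, 250 bases before to 50 after a start) were given for 8 of the 10 enzymes and not for PSPH and SHMT2. The letters TGATGNAA, the core of the element that ATF4 binds, were searched on both strands and found in 1 of the 8, MTHFD1L, compared with 3.62% of 35116 promoters. That share counts promoter entries, of which a gene such as MTHFD1L can have several, and is not a share of genes. The MTHFD1L site is shown as the only such match among the enzymes, with the motif in capitals.

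MTHFD1L promoter at chr6:150866346-150866374: gccgccggctcTGATGCAAtcgcgccggg

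The E-box CACGTG was found in promoters of MTHFD1 and MTHFD1L, against 7.26% of all promoters, again a share of promoter entries and not of genes. PHGDH, PSAT1, MTHFD2, SHMT1, MAT2A and AHCY held neither sequence in this window, which says nothing about elements elsewhere.

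The sequences TTCACAT and TCACATA were searched on the transcript strand of 3′ untranslated regions, because they had been picked earlier on fold changes of these same libraries. They share the letters TCACAT, so a single stretch can hold both. Among the enzymes, 0 of the 4 downregulated ones held either sequence, compared with 22.5% of 13150 regions of tested genes. Regions of the 4 were short, with 175 bases for PHGDH, 271 for MTHFD1, 574 for SHMT2 and 877 for SHMT1. The one match was in MTHFD2, 3264 bases into a region of 3323 bases and on the plus strand of chromosome 2, an enzyme that was not lower.

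MTHFD2 site at chr2:74444622-74444650: aacctgtattgTTCACATgaatgggagtt

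Among the other pathway genes, 4 of 9 downregulated ones, among them SLC1A4, MTR and AHCYL2, and 2 of 8 upregulated ones (SLC38A2 and MTAP) held one of these sequences, as did 6 of 44 that were not called. Because both sequences were picked on fold changes of these libraries, a split by call here cannot serve as support for them. Length was not accounted for either. Regions of SLC1A4, MTR and AHCYL2 had 2719, 6337 and 3166 bases. Those of TYMS, MTRR and ENOPH1, without a site, had 581, 1055 and 1057, and those of SLC7A5 and AMD1, also without, 2947 and 2097.

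Reads of the enzymes could be shared with pseudogene copies or overlapping genes. Of 22 annotated pseudogenes of 7 enzymes, 6 had any count, and all but 1 had at most 3 counts in any library. The exception was PSPHP1 with 71 to 92 counts, amounting to 5.09% of PSPH counts. Adding copies to their enzymes changed no call. Overlapping genes with a symbol and at least 30 counts in a library, all on the opposite strand, were SMCR8 for SHMT1, ZBTB25 for MTHFD1, GGCX for MAT2A, NDUFA4L2 for SHMT2 and SLC4A5 for MTHFD2. SMCR8 (log2 fold change -0.10, FDR = 0.0476) and ZBTB25 (log2 fold change -0.15, FDR = 0.00345) were lower like the enzymes they overlap, and GGCX was not called (log2 fold change 0.01, FDR = 0.902). NDUFA4L2, with 52 to 94 counts, and SLC4A5, with 30 to 40 counts, had log2 fold changes of 0.30 and 0.21 and were not called (FDR = 0.181 and 0.518). Libraries were stranded, but the sources used here do not give the strand option of counting, and the part of overlapping reads in these values was not tested.

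**Figure D5:**
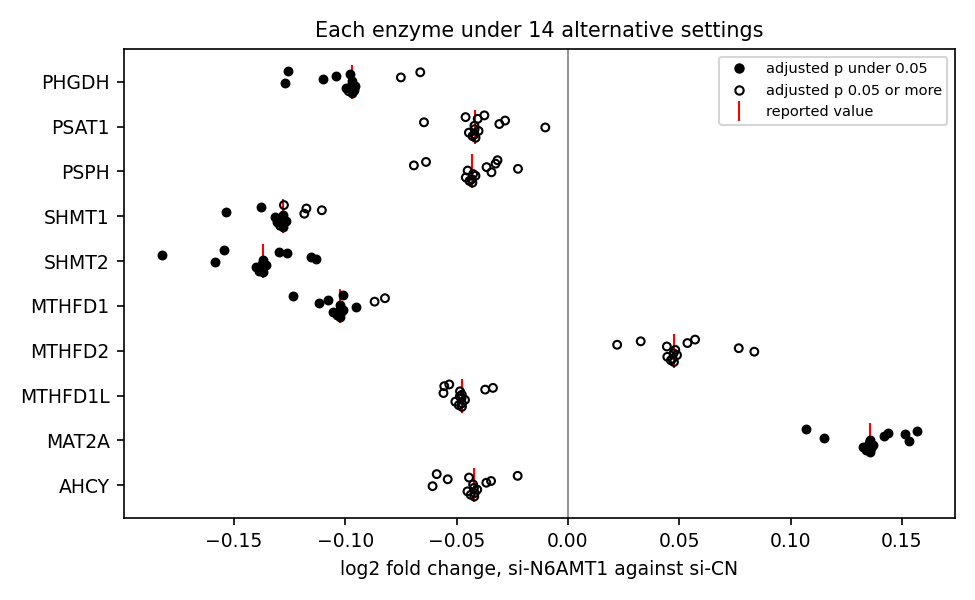
Log2 fold change of each enzyme under 14 alternative settings, filled where adjusted p is under 0.05 and open where it is not, with a red mark at the reported value. No enzyme changes direction, MAT2A and SHMT2 are filled in every setting, and PHGDH, SHMT1 and MTHFD1 each have open points.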

How the data were processed

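RNA-seq counts of 3 si-N6AMT1 and 3 si-CN libraries were analysed. The authors trimmed paired-end reads with Trim Galore, obtained a count for every transcript from kallisto v0.46.0 with GENCODE on hg19, and added transcripts up by gene. The deposited values are estimated counts (expected counts) in whole numbers, not normalized, so reads of similar genes are divided by an estimate. Labels and column names gave each library's group, and 62149 of 62438 identifiers were matched to GENCODE v44 on GRCh37. The remainder took at most 0.137% of a library.

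Genes passing edgeR's filter (minimum count of 10) were scaled by TMM and tested in edgeR v4.0.16 (R v4.3.3) by the quasi-likelihood test without covariates. P-values were adjusted by Benjamini-Hochberg over 17320 genes (FDR), and genes under 0.05 were called. Standard errors are log2 fold change over the square root of F. CPM is TMM-scaled, and TPM used lengths of reference transcripts. At 1 CPM a gene has 19.7 to 21.3 counts per library. The procedure was tested on simulated counts with changes larger than those of the 10 enzymes. Recovery of changes as small as theirs was not tested. Alternatives were DESeq2 v1.42.0, voom in limma v3.58.1, RLE scaling, no filter, library sizes without mitochondrial genes, the replicate block with and without a GC correction, added pseudogene counts and each library left out. Enzymes and gene lists were chosen with earlier results of these data known. Genes named were N6AMT1, the 10 enzymes, their pseudogene copies and overlapping genes, METTL16, YTHDC1, ATF4, called pathway genes up to 20 with the smallest FDR, and the gene of each list with the highest CPM. Sequences were read in Python v3.11.15 from GENCODE and RefSeq, using untranslated regions of at least 50 bases. A few genes that this rule names are not reported here.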

Additional observations from a re-analysis of the deposited data

How the results depend on the processing

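The count of called enzymes was 5 under RLE scaling, voom, testing without a filter, library sizes without mitochondrial genes, added pseudogene counts and the replicate block with or without a GC correction. It fell to 3 under DESeq2, which lost PHGDH and SHMT1, and ran from 3 to 4 with each library left out. Of 140 values of single enzymes under alternatives, 130 kept direction and side of the threshold, 10 lost the call and 0 reversed. Pathway genes called fell from 17 to 9 under DESeq2 (13 to 18 with a library left out), and all genes called from 3687 to 1932 (2835 to 3341). Why DESeq2 called fewer genes was not tested. Log2 fold change of N6AMT1 ran from -1.18 to -1.04 with a library left out. Deviations of same-numbered libraries correlated at -0.100, -0.0714 and -0.0177 over 11480 genes, so no pairing by replicate number was seen in the counts. These values cannot tell whether same-numbered libraries were prepared together. The replicate block gave 5 enzymes, 15 pathway genes and 3326 genes in all, and with a GC correction 5, 16 and 3124. Of the genes named, AMD1 and PPAT lost their call under the block, and SRM, CEBPB, MTR, MTRR, ENOPH1 and AMD1 under the block with a GC correction. Levels of all 10 enzymes, and so their order, moved when the median coding length was used. No scaling moved the median of all tested genes by over 0.1 on the log2 scale. With 3 libraries per group, 95% intervals of the 5 enzymes not called reached from -8.44% to 7.59%.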
